A study of Mus musculus with 22 samples.

Results

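Interferon-stimulated genes were read in RNA sequencing of cells sorted from the stroma of mouse tumors, as a list of 43 gene symbols matched to the Ensembl identifiers of the deposited tables. Of these, 42 had an identifier of their own among the 41388 genes in the tables, and all 42 passed the filter on low counts, so that they are 42 of the 15043 genes tested. The 43rd, Gbp5, a guanylate-binding GTPase, had no entry: its locus on chromosome 3 lies inside an entry that runs from 142496934 to 142619179 and carries the name Gbp2b, with 2075 counts over all libraries, and it is not analysed here. The stroma came from tumors grown in C57BL/6 mice at postnatal day 56, and cells were sorted by a TdTomato reporter and by CD45, the surface protein of leukocytes, into 4 populations. These are TdT single positive (TdT+ CD45-), double positive (TdT+ CD45+), CD45 single positive (TdT- CD45+) and double negative (TdT- CD45-) cells. Of the 22 libraries, 11 were labelled wild type and 11 Cdh2-cKO. Each genotype had 2 TdT single positive libraries, and 3 libraries of every other sort. Mice of both genotypes carried Osx-cre and the Ai9 reporter, so TdT marks cells in which the Osterix promoter of the transgene has driven Cre, or their descendants. The Cdh2-cKO mice carried in addition a conditional deletion of Cdh2, which encodes N-cadherin, in those Cre-expressing cells, while TdT- cells showed no Cre reporter in either genotype. The tumor is an orthotopic MMTV-BO1 tumor in the labels of the libraries and a subcutaneous one in the text on the whole series, while the paper names a PyMT-BO1 line given subcutaneously.

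Interferons are secreted proteins by which cells warn each other of viral infection and other danger. Type I interferons signal through Ifnar1 and Ifnar2 to a complex containing Stat2 and Irf9 that binds an interferon-stimulated response element (ISRE), and interferon gamma signals through Ifngr1 and Ifngr2 to genes that carry a gamma-activated site (GAS). The genes so induced encode sensors of viral nucleic acid, enzymes that block translation or degrade RNA, and ubiquitin-like modifiers. Others encode GTPases that attack vacuoles of intracellular microbes. Leukocytes can keep part of this program switched on in tumors.

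The depth on genes ran from 16594228 to 26784003 reads. Levels are given as normalized CPM, the count relative to the TMM-scaled depth of its library, and a floor of 3 counts lay between 0.103 and 0.201 on that scale. Without molecular identifiers such a floor reflects counting error alone. Cdh2 itself was not lower under the Cdh2-cKO label in CD45- cells. In TdT single positive cells it stood at 9.14 and 5.19 normalized CPM in the libraries labelled wild type against 17.2 and 13.1 in those labelled Cdh2-cKO, and in double negative cells at 6.02, 7.47 and 4.52 against 12.5, 18.4 and 14.2. The level of the transcript thus does not bear out the label, but counts per gene cannot show whether exons were deleted. Double negative cells showed no Cre reporter, so the label predicts no loss of Cdh2 there. In TdT single positive libraries epithelial and tumor markers summed to 33.9 and 566 normalized CPM under the wild type label and to 933 and 928 under the other. Their part in the Cdh2 level was not tested. Every genotype below is the label of a library. Sp7, which encodes Osterix, had 3 counts over all 22 libraries. The summed level of 10 pan-leukocyte markers was between 12631 and 16596 normalized CPM in the 12 CD45+ libraries. The TdT single positive libraries, also CD45-, were not free of this signal. The sum was 228 and 2057 in those labelled wild type and 5118 and 2359 in those labelled Cdh2-cKO. In the double negative libraries it was 202, 1152 and 7598 for replicates 1, 2 and 3 labelled wild type and 375, 402 and 488 for those labelled Cdh2-cKO, so that wild type double negative replicate 3 stood apart, as a sorted CD45- library with a high leukocyte signal. The wild type CD45 single positive replicate 2 also stood apart, with a summed B cell marker level of 3450 normalized CPM where the other CD45+ libraries had between 8.56 and 21.6. Its T cell, NK cell and neutrophil sums were 1979, 642 and 848, where the other CD45+ libraries had at most 466, 60.6 and 95.9. Its macrophage sum was 3730, where those had between 11618 and 17118. Some values below are given with and without the libraries that stood apart. The fibroblast markers Col1a1, Col1a2, Pdgfra, Dcn and Lum were present in every double negative library, and Pdpn had 0 counts in all of them. The fibroblast sum differed, at 23592, 7465 and 3233 normalized CPM in replicates 1, 2 and 3 labelled wild type. It was 7377, 6810 and 11798 in those labelled Cdh2-cKO. Erythroid markers summed to 1.61, 3243 and 36.9 against 625, 1065 and 218. The part of this cell mix in the results was not tested.

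Promoters of the genes were read first for the elements named above, in windows from 250 bases before to 50 after the annotated start (RefSeq, GRCm38.p6). Windows were found for 33 of the 43 genes. The 10 without one are Parp9, Oas2, Usp18, Mx2, Ifi27l2a, Mx1, Zbp1, Parp14, Rtp4 and Dhx58. The ISRE core, searched on both strands as GAAA, any 2 bases and GAAA, was in the windows of 18 of the 33, against 3.99% of the 27025 genes with a window. The GAS letters, TTCNNNGAA, which read the same on both strands, were in 10 of the 33, against 9.55% of all genes. Some windows held both, and in Bst2 and Ifitm3 the elements overlap. The 60-base stretches shown next belong to genes described with their values further on, and the capitals mark every complete match in the stretch, to the ISRE core in the first 7 and to GAS in Irf1.
Isg15, chr4:156200862-156200921, minus strand: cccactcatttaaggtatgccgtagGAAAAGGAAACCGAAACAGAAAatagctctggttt
Oas1a, chr5:120907526-120907585, minus strand: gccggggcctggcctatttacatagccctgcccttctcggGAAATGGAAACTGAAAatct
Ifit1, chr19:34640760-34640819, plus strand: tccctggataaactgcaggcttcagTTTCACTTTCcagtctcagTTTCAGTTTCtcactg
Ifit3, chr19:34583348-34583407, plus strand: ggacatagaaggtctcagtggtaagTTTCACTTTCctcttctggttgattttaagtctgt
Trim30a, chr7:104465195-104465254, minus strand: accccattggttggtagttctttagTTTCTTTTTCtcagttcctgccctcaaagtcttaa
Gbp2, chr3:142620579-142620638, plus strand: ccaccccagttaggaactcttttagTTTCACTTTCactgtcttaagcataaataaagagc
Gbp3, chr3:142559974-142560033, plus strand: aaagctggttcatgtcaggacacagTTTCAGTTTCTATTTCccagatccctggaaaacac
Irf1, chr11:53769899-53769958, plus strand: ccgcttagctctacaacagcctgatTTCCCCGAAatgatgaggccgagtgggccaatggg

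In Isg15 overlapping cores form 1 run, and in Ifit1 a pair of cores lies within one stretch. The windows of Znfx1, Irf7 and Irf9 held neither set of letters, which says only that these letters are not in those windows. Matches are a description of the sequence and no record of binding.

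**Figure D1:**
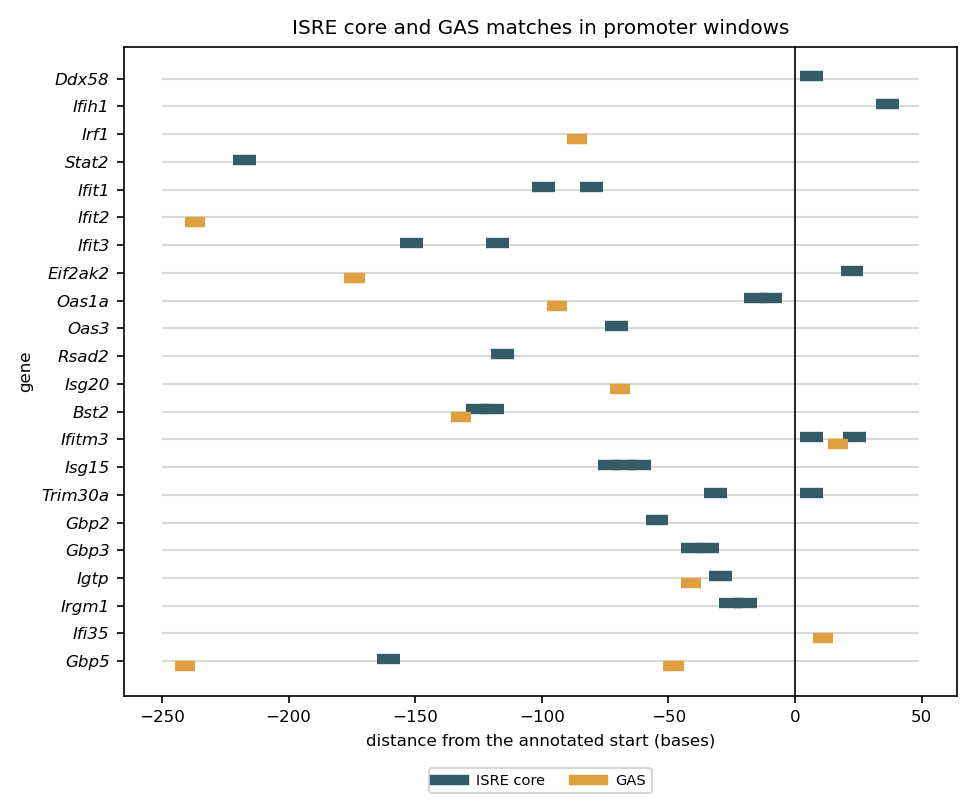
Positions of ISRE core (dark) and GAS (orange) matches in the promoter windows of the genes with at least 1 match; the horizontal axis is the distance from the annotated start in bases, and each grey line spans a window of 250 bases before to 50 after it. ISRE cores were found in 18 genes and GAS letters in 10, most of them before the start.

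The genes were expressed at very different levels. Per length, Ifitm3, a membrane protein that hinders viral fusion, had the highest mean of the 42 genes over the 22 libraries, 992 RPKM. It was followed by Ifi27l2a at 208, Bst2, the tetherin that holds budding virions on the cell, at 142, and the ubiquitin-like modifier Isg15 at 68.1. At the other end stood Mx2, annotated as a polymorphic pseudogene, at 0.745 RPKM, the RNA sensor and nuclease activator Oas3 at 1.17, and the mitochondrial nucleotide kinase Cmpk2 at 1.08, with Ifi44 at 1.004 between Mx2 and Cmpk2. The spread between libraries also differed between genes. The highest library was 2.18 times the lowest for Eif2ak2 (PKR, a kinase that halts translation on double-stranded RNA) and 55.4 times for the dynamin-like GTPase Mx1. The wild type CD45 single positive replicate 2 was the highest of all 22 libraries for 23 of the 42 genes, and wild type double negative replicate 1 for 8.

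**Figure D2:**
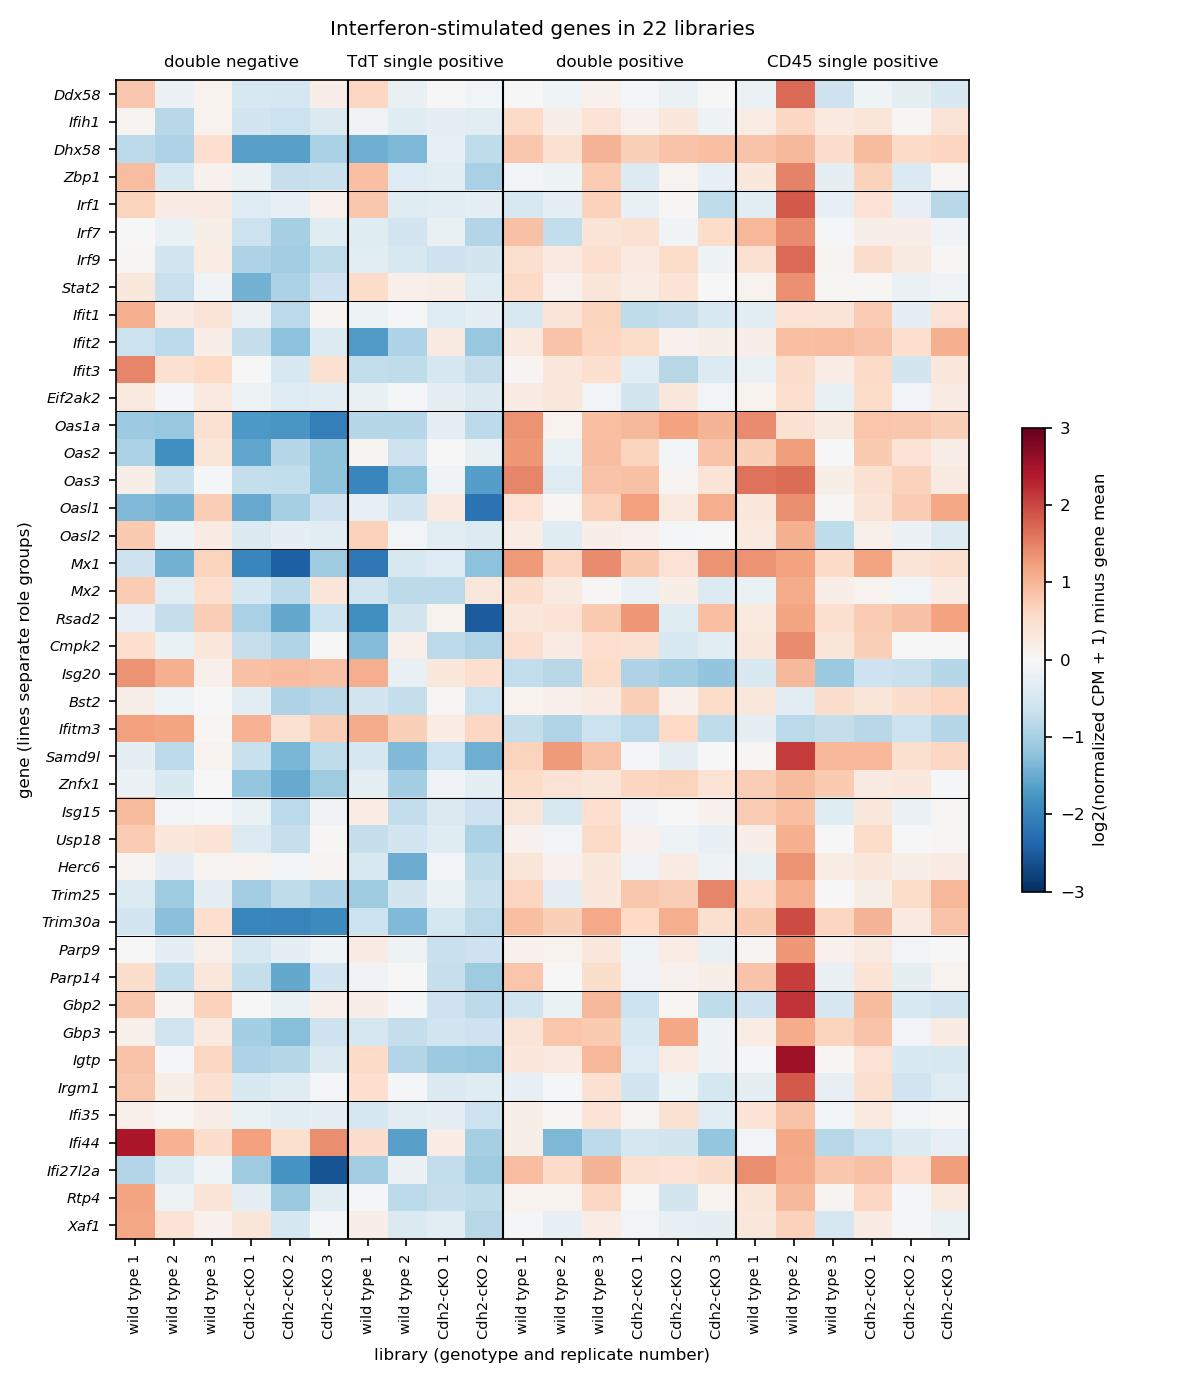
Heatmap of the 42 genes (rows, grouped by role) in the 22 libraries (columns, by population, genotype label and replicate); color is log2(normalized CPM + 1) minus the mean of the gene over all libraries. Most rows are redder in the CD45+ populations, Ifitm3, Isg20 and Ifi44 are redder in the CD45- ones, and the wild type CD45 single positive replicate 2 is the highest library for 23 genes.

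The question of which compartment of the stroma carried the program was addressed by comparing both CD45+ with both CD45- populations. Of the 42 genes, 27 were higher in CD45+ cells, 3 were lower and 12 did not pass the test (edgeR, Benjamini-Hochberg adjusted p of at most 0.05 over all genes tested). The comparison called 63.7% of all genes, 32.6% as higher and 31.1% as lower. Without both libraries that stood apart 23 were higher and 3 lower, and the share of all genes called without them is not given here. The median log2 fold change was 0.63 over the 42 genes and 0.06 over all genes tested. By role, 4 of 5 OAS genes were higher, as were 4 of 5 genes of the ISG15 system and TRIM ligases, 3 of 4 transcription factors, 2 of 4 sensors and 2 of 4 GTPases of the GBP and IRG families, but 1 of 4 in the group of IFIT proteins and PKR.

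The 5 largest rises were those of Mx1, Oas3, Trim30a, Oas1a and Dhx58. Mx1 ranged from 0.339 to 10.6 normalized CPM (median 2.34) in the 10 CD45- libraries and from 8.63 to 18.8 (median 13.7) in the 12 CD45+ libraries, a log2 fold change of 2.27 (SE 0.394, edgeR adjusted p = 8.39e-05). The ranges meet at a single CD45- library, wild type double negative replicate 3. Trim30a, a ubiquitin ligase of the TRIM family, spanned 9.79 to 60.2 (median 20.5) against 52.5 to 166 (median 76.1), a log2 fold change of 1.93 (SE 0.221, edgeR adjusted p = 9.91e-07). Oas1a, which makes the second messenger that switches on RNase L, spanned 5.04 to 33.6 (median 11.8) against 25.8 to 65.9 (median 45.1), a log2 fold change of 1.86 (SE 0.228, edgeR adjusted p = 2.15e-06). For both genes the top of the CD45- range was again the double negative library with the high leukocyte signal, and reads of Oas1a and Trim30a could be shared out unevenly with their near-identical copies, since only uniquely aligned reads were counted. Dhx58, the sensor LGP2, rose by a log2 fold change of 1.76 (SE 0.184, edgeR adjusted p = 3.28e-07), and Oas3 by 2.01 (SE 0.341, edgeR adjusted p = 6.70e-05). Ifi27l2a was the only one of the 42 genes whose libraries did not overlap between the compartments, at 12.1 to 70.1 normalized CPM against 105 to 204.

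Ifitm3, Isg20 and Ifi44 went the other way. Ifitm3 ranged from 608 to 1360 normalized CPM (median 959) in CD45- and from 309 to 875 (median 345) in CD45+ libraries, a log2 fold change of -1.33 (SE 0.186, edgeR adjusted p = 9.25e-06). The CD45+ value of 875 belonged to the Cdh2-cKO double positive replicate 2, and the other 11 CD45+ libraries were at 485 or below. Isg20, an exonuclease that degrades single-stranded RNA, spanned 20.3 to 62.9 (median 44.9) against 9.98 to 48.0 (median 13.5), a log2 fold change of -1.23 (SE 0.256, edgeR adjusted p = 4.65e-04), a call lost in the wild type libraries alone (-0.84, adjusted p = 0.184). Ifi44 spanned 0.775 to 29.0 (median 6.89) against 1.17 to 11.2 (median 2.79), with a log2 fold change of -1.06 (SE 0.402, edgeR adjusted p = 0.0293). That Ifi44 call was lost by edgeR without any 1 of 4 libraries: wild type TdT single positive replicate 1 (-0.49, adjusted p = 0.293), wild type double negative replicate 1 (-0.85, adjusted p = 0.0689), Cdh2-cKO TdT single positive replicate 1 (-0.79, adjusted p = 0.117) and Cdh2-cKO double positive replicate 3 (-0.99, adjusted p = 0.05003). In bulk libraries, fewer cells of a type and less RNA per cell cannot be told apart.

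Within each compartment few differences passed the test. Between double positive and CD45 single positive cells 0 of the 42 genes were called by edgeR, and 0 had an unadjusted p under 0.05; 0.00665% of all genes were called. The median log2 fold change was -0.25 over the 42 genes, against -0.06 over all genes, and 0.02 without both libraries that stood apart. Between TdT single positive and double negative cells, where 1.89% of all genes were called, 1.23% as higher and 0.658% as lower, Ifit3 alone was called by edgeR. Ifit3, which binds Ifit1 and stabilizes it on viral RNA, stood at 11.4, 11, 13.4 and 11.4 normalized CPM in the 4 TdT single positive libraries, the first pair labelled wild type. In double negative cells it stood at 55.8, 27.4 and 30.1 in the libraries labelled wild type and at 19.4, 13.9 and 27 in those labelled Cdh2-cKO. Every TdT single positive library was below every double negative one, with a log2 fold change of -1.22 (SE 0.269, edgeR adjusted p = 0.0331). The adjusted p was 0.0683 with the voom test and 0.0509 with no filter on low counts, and without single libraries it ranged from 0.0178 to 0.142. Uniquely aligned reads cannot be shared between Ifit3 and its copy Ifit3b, which leaves the level of each uncertain.

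Double negative cells were then compared between the genotype labels. Of the 42 genes 0 were called by edgeR, with a smallest adjusted p of 0.178, and 0% of all genes were called in this comparison, with a smallest adjusted p over all genes of 0.131. At an unadjusted p under 0.05 there were 16 of the 42 genes, or 38.1%, against 9.59% of all genes. DESeq2 called 5 of the 42 (Dhx58, Oas1a, Znfx1, Trim30a and Ifi27l2a), all lower under the Cdh2-cKO label, among 522 genes or 3.47% of those tested, and the voom test called 0, with 12 at an unadjusted p under 0.05. The fitted log2 fold changes were below 0 for 41 of the 42 genes, with a median of -0.82 against -0.06 over all genes tested. In 21 of the 42 genes every library labelled Cdh2-cKO was below every library labelled wild type, against 5.35% of all genes, and in 0 of them it was above, against 3.84%. Leaving out wild type double negative replicate 2 raised that count from 21 to 33, against 10.6% of all genes, and leaving out replicate 3, with the high leukocyte signal, gave 24, against 10.1%. Without replicate 3 the median was -0.74 and 39 of the 42 values were below 0. Without wild type replicate 1, edgeR called 5 of the 42 genes as lower (Dhx58, Oas1a, Znfx1, Trim30a and Ifi27l2a) among 603 genes, and without wild type replicate 2 it called Znfx1 and Trim30a among 31. The labels describe the libraries of a group as biological replicates and do not say which mouse gave which. Genes of 1 program can shift together in a library, so the 42 genes are not 42 independent outcomes. The list was also chosen with earlier results of these data known, which limits what the shares of all genes can be compared with.

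**Figure D3:**
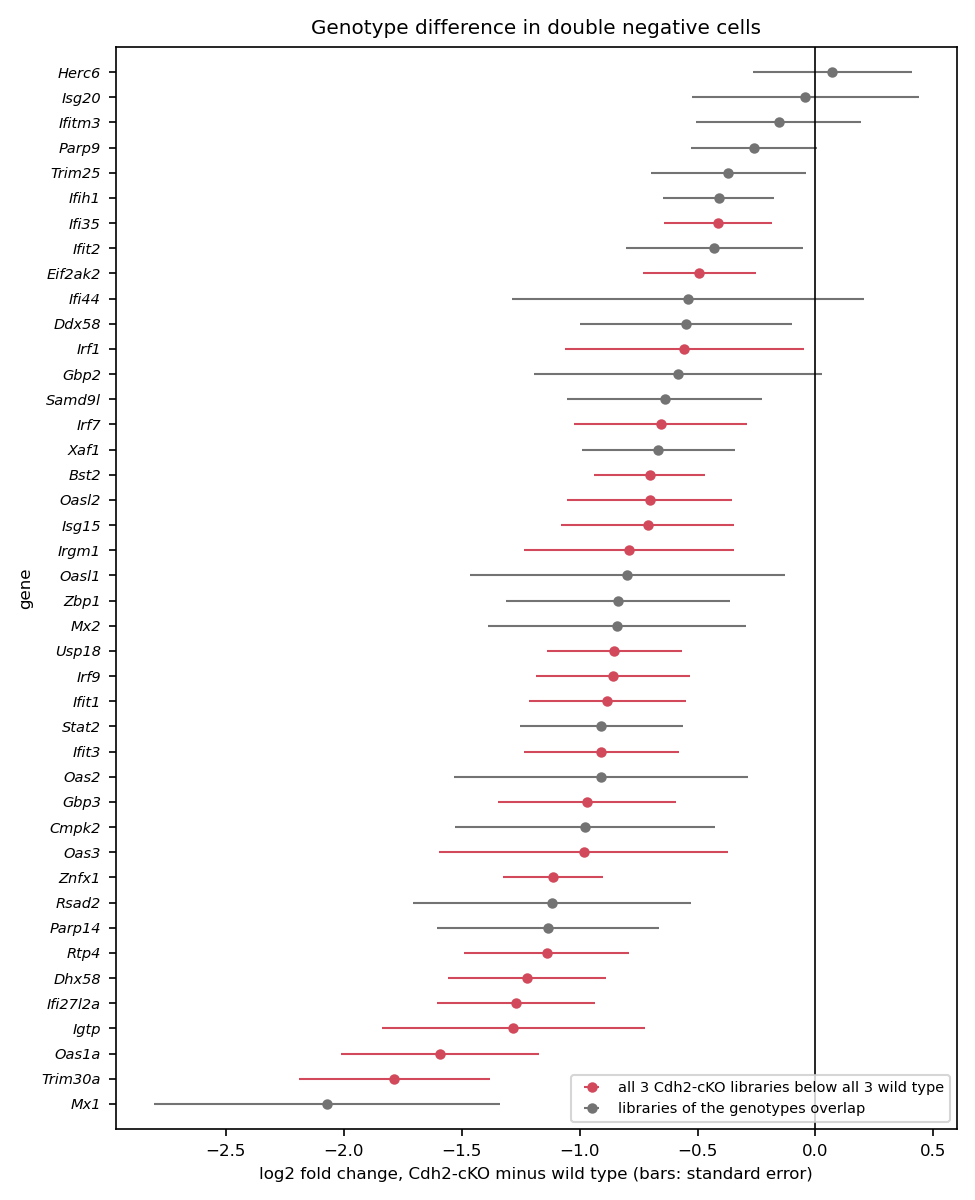
Log2 fold change of each of the 42 genes between double negative libraries labelled Cdh2-cKO and wild type (3 each; edgeR), with the standard error as a horizontal bar. Red points are the 21 genes whose libraries do not overlap between the labels; 41 of 42 points lie below 0 and the median is -0.82, while none passed the adjusted threshold.

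The sensors and transcription factors are given first. Dhx58 stood at 11.8, 10.6 and 30.3 normalized CPM in the double negative libraries labelled wild type (replicates 1, 2 and 3, an order kept throughout) and at 6.10, 6.15 and 10.3 in those labelled Cdh2-cKO. The groups did not overlap, but the wild type replicates 1 and 2 were close to the highest Cdh2-cKO library, and the log2 fold change of -1.22 (SE 0.335, edgeR adjusted p = 0.18, DESeq2 adjusted p = 0.0258) became -0.55 without wild type replicate 3. Zbp1, a sensor of Z-form nucleic acid that can trigger necroptosis, was at 64.8, 24.2 and 37.5 against 29.3, 20.5 and 21. Its groups overlapped, the value of 64.8 stood alone, and the log2 fold change of -0.84 (SE 0.473, edgeR adjusted p = 0.686) became -0.38 without that library. Irf1, a transcription factor downstream of interferon gamma with the GAS match shown before, was at 164, 121 and 121 against 77.8, 85.8 and 113. Those groups were separate by a small gap, with a log2 fold change of -0.56 (SE 0.505, edgeR adjusted p = 0.946). Irf9, the DNA-binding subunit of the type I complex, was at 53.4, 34.5 and 60.8 against 26.8, 25 and 30.2. All of its wild type values were higher, and the log2 fold change was -0.86 (SE 0.325, edgeR adjusted p = 0.305). Over these lists, 1 of 4 sensors and 3 of 4 transcription factors had libraries that did not overlap.

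Among the antiviral effectors, Ifit1, which binds viral RNA lacking the host cap, stood at 86.0, 48.5 and 53.5 normalized CPM in the libraries labelled wild type and at 35.7, 22.8 and 43.4 in those labelled Cdh2-cKO. The log2 fold change was -0.88 (SE 0.332, edgeR adjusted p = 0.299), and -0.58 without wild type replicate 1. Ifit3, with the values given above, had one of -0.91 (SE 0.329, edgeR adjusted p = 0.269), and of -0.51 without that same library. For both genes the groups were separate and replicate 1, which had the lowest leukocyte markers of all 6 libraries, was the highest. Oas1a was at 10.8, 10.4 and 33.6 against 6.62, 6.49 and 5.04, again without overlap. Here replicate 3 was the highest, and the log2 fold change of -1.59 (SE 0.42, edgeR adjusted p = 0.18, DESeq2 adjusted p = 0.0149) became -0.79 without it.

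Znfx1, an RNA helicase that moves to mitochondria and signals through MAVS, had the smallest p of the 42 genes in this comparison. It stood at 19.2, 15.8 and 21.8 normalized CPM in the libraries labelled wild type and at 9.2, 7.03 and 9.96 in those labelled Cdh2-cKO. The groups lay well apart, and no single library carried the difference: the log2 fold change was -1.11 (SE 0.213, edgeR adjusted p = 0.178, DESeq2 adjusted p = 0.000962) and stayed between -1.23 and -0.98 whichever library was left out. With edgeR the adjusted p of Znfx1 was 0.0173 without wild type replicate 1, 0.0437 without wild type replicate 2 and 1 without wild type replicate 3, where no gene of the 42 was called. Ifitm3, by contrast, was at 1360, 1323 and 608 against 1190, 800 and 965. Its groups overlapped fully, with a log2 fold change of -0.16 (SE 0.35, edgeR adjusted p = 0.994). Of the 9 genes in the group of MX proteins and other effectors, Bst2 and Znfx1 were the 2 whose libraries did not overlap.

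Isg15, which is conjugated to other proteins like ubiquitin, stood at 95.0, 45.8 and 47.1 normalized CPM in the libraries labelled wild type and at 42.5, 27.1 and 45.1 in those labelled Cdh2-cKO. The groups were separate only narrowly, and the log2 fold change of -0.71 (SE 0.366, edgeR adjusted p = 0.604) became -0.28 without wild type replicate 1. Trim30a was at 28.1, 17.1 and 60.2 against 10.2, 9.79 and 10.5. The 3 lower libraries lay within 1 normalized CPM of each other and under every wild type value, with a log2 fold change of -1.79 (SE 0.406, edgeR adjusted p = 0.18, DESeq2 adjusted p = 0.00437) that became -1.13 without wild type replicate 3. Herc6, the mouse ligase for Isg15, was the 1 gene of the 42 with a value above 0, at 0.07 (SE 0.335, edgeR adjusted p = 0.998), and at -0.04 without wild type replicate 2.

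Parp9 and Parp14, members of the ADP-ribosyltransferase family, did not separate. Parp9 stood at 34.2, 27.6 and 37.6 normalized CPM against 24.1, 27.9 and 30.9, with a log2 fold change of -0.26 (SE 0.267, edgeR adjusted p = 0.96) that became -0.14 without wild type replicate 3 and -0.17 without Cdh2-cKO replicate 1, and Parp14 at 20.5, 8.08 and 17.7 against 8.04, 4.12 and 8.92, with one of -1.14 (SE 0.47, edgeR adjusted p = 0.385). In both, wild type replicate 2 lay among the libraries labelled Cdh2-cKO. Of the GTPases, Gbp2, which assembles on the membranes of intracellular microbes, was at 134, 79.7 and 124 against 75.5, 65.8 and 83.7, with a log2 fold change of -0.58 (SE 0.61, edgeR adjusted p = 0.965). Its relative Gbp3 was at 52.7, 31.1 and 58.4 against 23.1, 19.2 and 30.3, with one of -0.97 (SE 0.379, edgeR adjusted p = 0.33). The groups overlapped for Gbp2 and not for Gbp3, where wild type replicate 2 was just above the highest Cdh2-cKO library. The immunity-related GTPases Igtp and Irgm1 did not overlap either.

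Of the other inducible genes, Ifi27l2a stood at 41.7, 57.8 and 70.1 normalized CPM in the libraries labelled wild type and at 36.3, 22 and 12.1 in those labelled Cdh2-cKO. The groups were separate, with a log2 fold change of -1.27 (SE 0.336, edgeR adjusted p = 0.18, DESeq2 adjusted p = 0.018), and near copies of this short gene make its level uncertain. Mx1, at 3.77, 1.74 and 10.6 against 0.894, 0.339 and 2.54, had a log2 fold change of -2.07 (SE 0.733, edgeR adjusted p = 0.253), and its groups overlapped. The Mx1 value became -1.09 without wild type replicate 3 and -3.12 without Cdh2-cKO replicate 3.

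The leukocyte signal is set beside these values, and its part in them was not tested. In the double negative libraries the summed level of 7 macrophage markers was 111, 1366 and 8734 normalized CPM under the wild type label and 227, 320 and 186 under the Cdh2-cKO label. All 10 pan-leukocyte and all 7 macrophage markers had counts in every double negative library, while Siglech and Klk1, markers of plasmacytoid dendritic cells, were each at 0 in 3 of the 6. The mean log2(normalized CPM + 1) over the 42 genes was 5.23, 4.6 and 5.20 in the libraries labelled wild type and 4.34, 4.11 and 4.50 in those labelled Cdh2-cKO. Replicate 1 labelled wild type, with the lowest pan-leukocyte sum of the 6 at 202, was thus also the library with the highest mean, and was the highest of the 6 libraries for 23 genes, while replicate 3, with the highest sum, was the highest for 18. Among the 27 genes that were higher in CD45+ cells the median log2 fold change between the labels was -0.91, and -0.70 without wild type replicate 3. Among the 12 genes that were not called between the compartments it was -0.71, and -0.77 without that library, and 7 of these 12 had libraries that did not overlap. The 3 genes that were lower in CD45+ cells had a median of -0.16, and of -0.43 without wild type replicate 3. The calls between the compartments also used these 6 double negative libraries, so the split is not independent of the values. No values of all genes split in this way are given, and the medians are a description only. Epithelial and tumor markers summed to 505, 1403 and 595 normalized CPM against 1227, 1994 and 1063, and the part of these other cells in the result was not tested. Wild type replicate 1 was also the one of the 3 wild type double negative libraries with transcripts of the Y-linked Ddx3y. It had 69.3 normalized CPM, against 0.330 or less in replicates 2 and 3. Cdh2-cKO replicate 2 had 30.9, against 0.420 or less in the others with that label. Both libraries also had Xist, a transcript of female cells, at 62.6 and 151 normalized CPM. Y-linked transcripts were thus not balanced over these libraries, and the part of sex in the result was not tested.

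**Figure D4:**
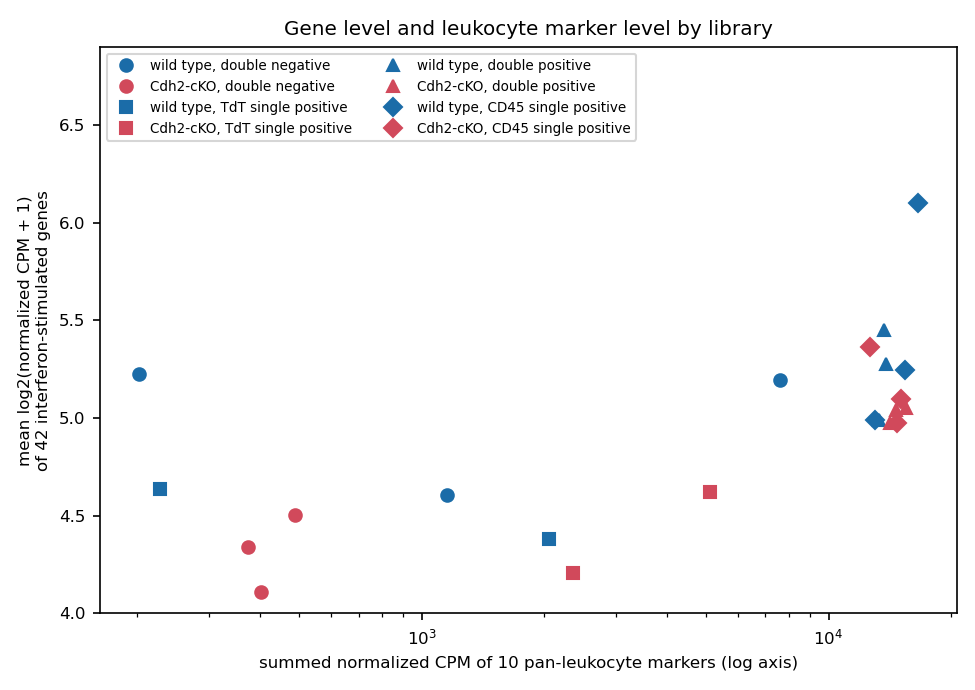
Mean log2(normalized CPM + 1) of the 42 genes (vertical axis) against the summed normalized CPM of 10 pan-leukocyte markers (horizontal, log axis) in the 22 libraries; color gives the genotype label and shape the population. Double negative libraries labelled wild type (blue circles) sit at 5.23, 4.6 and 5.20 and those labelled Cdh2-cKO (red circles) between 4.11 and 4.50, and the blue circles span leukocyte sums from 202 to 7598.

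Promoters with and without the ISRE core were set beside the same comparison, as a description. The 17 tested genes with the core had a median log2 fold change between the labels of -0.88, with a range from -1.79 to -0.16, and the 15 with a window but no core one of -0.64, with a range from -1.11 to 0.07. The ranges overlap over most of their length.

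The labels were compared in the other populations in the same way. In TdT single positive cells, where 0.00665% of all genes were called, edgeR called 0 of the 42 genes, with 3 at an unadjusted p under 0.05 (7.14%, against 10.5% of all genes), and the voom test and DESeq2 also called 0. The median was -0.11, and 16 values were above 0. With single libraries left out it ran from -0.33, without Cdh2-cKO TdT single positive replicate 1, to 0.07, without wild type TdT single positive replicate 1, so that its sign rests on the latter. With 2 libraries a group, 10 of the 42 genes had both libraries labelled Cdh2-cKO below both labelled wild type, against 20.7% of all genes, and 3 had them above, against 21.4%. In double positive cells, with 0% of all genes called, edgeR, DESeq2 and the voom test called 0 of the 42, with 4 at an unadjusted p under 0.05 by edgeR (9.52%, against 3.42% of all genes). The median of -0.27 became -0.14 without wild type double positive replicate 3 and -0.37 without wild type double positive replicate 2. There, 5 genes (Ifit3, Isg20, Samd9l, Igtp and Ifi27l2a) had all libraries labelled Cdh2-cKO below, against 6.06% of all genes, and Trim25, a ligase that activates the sensor Ddx58, had all of them above, against 6.74%. In CD45 single positive cells, also with 0% of all genes called, edgeR, DESeq2 and the voom test called 0 of the 42, with 6 at an unadjusted p under 0.05 by edgeR (14.3%, against 9.83% of all genes). The median there was -0.42, and 0.03 without both libraries that stood apart. Only Znfx1 had libraries that did not overlap, against 5.91% of all genes, at 37.1, 43.5 and 38.8 normalized CPM under the wild type label and 26.9, 27.4 and 20.9 under the Cdh2-cKO label, a log2 fold change of -0.67 (SE 0.21, edgeR adjusted p = 0.416). Znfx1 had values above 0 in TdT single positive cells, 0.42 (SE 0.257, edgeR adjusted p = 0.579), and in double positive cells, 0.13 (SE 0.209, edgeR adjusted p = 1). The Y-linked Ddx3y was at 56.3, 184 and 0.162 normalized CPM in CD45 single positive libraries labelled wild type. It was at 0.736 or less in those labelled Cdh2-cKO, and the part of sex in that comparison was not tested.

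**Figure D5:**
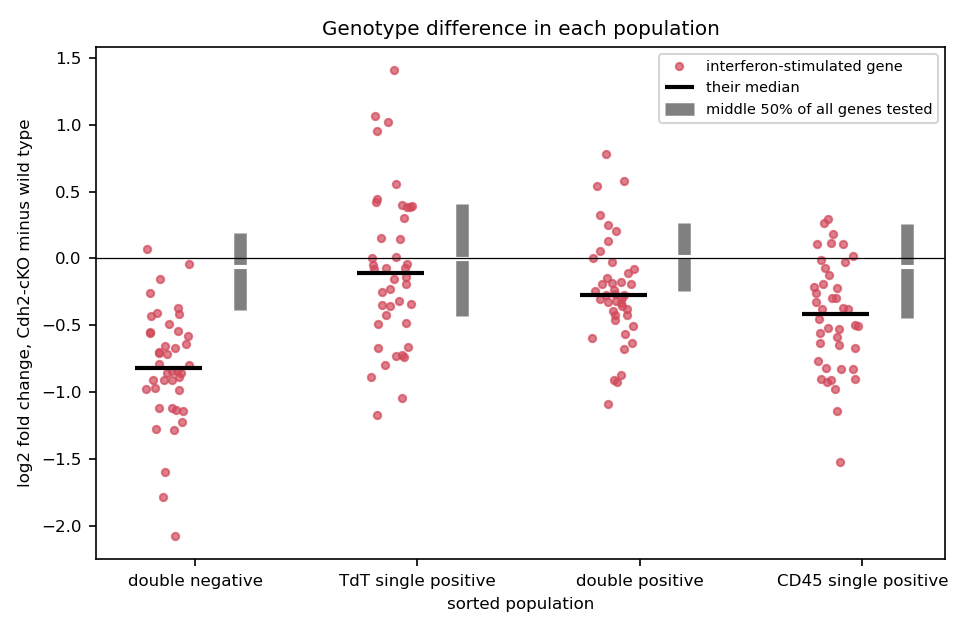
Log2 fold change between libraries labelled Cdh2-cKO and wild type for each of the 42 genes (red points, black line at their median) in the 4 populations, beside the middle 50% of all 15043 genes tested (grey bar, white mark at the median). The medians of the 42 genes are -0.82, -0.11, -0.27 and -0.42 from left to right; edgeR called none of the points.

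The difference between the populations was tested itself, as the value in double negative cells minus the mean of the other 3. By edgeR 0 of the 42 genes and 0% of all genes were called, with 7 of the 42 at an unadjusted p under 0.05 (16.7%, against 9.23% of all genes), and DESeq2 called 5 (Dhx58, Oas1a, Bst2, Znfx1 and Trim30a) among 3.47% of all genes. The smallest edgeR adjusted p among the 42 was 0.139, that of Znfx1, with a difference of -1.08 (SE 0.248), which Dhx58 shared with a difference of -1.56 (SE 0.392). The median difference was -0.42, against -0.02 over all genes, and 37 of the 42 values were below 0. With single libraries left out the median ran from -0.65, without wild type double negative replicate 2, to -0.26, without wild type double negative replicate 1, and between 28 and 40 values were below 0. These comparisons share the double negative libraries with the one before.

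The rest of the pathway was read from lists of 94 genes, of which 75 were tested. In double negative cells edgeR called 0 of the 75 between the labels, and 71 of the 75 values were below 0. At an unadjusted p under 0.05 there were 25 of the 75, against 9.59% of all genes. These counts are not given without wild type double negative replicate 3, the library with the high leukocyte signal. The part of that signal in them was not tested. Between the compartments 46 of the 75 were higher in CD45+ cells and 2 were lower, against 32.6% and 31.1% of all genes. Among the ligands, only Ifnb1, with 291 counts over the 22 libraries, and Ifng, with 813, passed the filter. Ifna13 had 22 counts and Ifnk 24, and Ifna1, Ifna2, Ifna4, Ifna14, Ifne, Ifnz, Ifnl2 and Ifnl3 had 7 or fewer each. Ifng did not exceed 0.606 normalized CPM in any CD45- library and reached 39.0 in wild type CD45 single positive replicate 2, which stood apart, while the other CD45+ libraries had 3.38 or less. The log2 fold change of 3.68 (SE 1.26, edgeR adjusted p = 0.0171) became 1.99 (SE 1.05, edgeR adjusted p = 0.105) without that library and was 3.19 (SE 1.17, edgeR adjusted p = 0.0248) without both libraries that stood apart. In double negative cells Ifng was above the floor only in wild type replicate 3, at 0.606, and Ifnb1 stood at 0.0460, 0.0512 and 0.716 normalized CPM under the wild type label against 0.158, 0 and 0.709 under the other.

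The receptors were present in both compartments and higher in CD45+ cells. Ifngr1, the ligand-binding chain for interferon gamma, spanned 74.8 to 267 normalized CPM (median 130) in CD45- and 362 to 520 (median 458) in CD45+ libraries without overlap, a log2 fold change of 1.71 (SE 0.145, edgeR adjusted p = 2.47e-08). Ifnar1, Ifnar2, Ifngr2 and Il10rb, the shared chain of the interferon lambda receptor, were also called higher, with log2 fold changes of 1.03, 1.37, 1.05 and 2.03, and the lambda-specific chain Ifnlr1 had 6 counts over all libraries.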

How the data were processed

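RNA of sorted populations was amplified with a SMARTer kit by the authors, who aligned single-end reads with STAR to GRCm38 and assigned uniquely aligned reads to Ensembl genes by featureCounts. Raw reads per gene make up the deposited counts. The deposited CPM and RPKM values were computed by the authors from those counts and were used only to check them. All values here were computed from the counts in R 4.3.3. Genes annotated as rRNA (355) were dropped, and a gene had to exceed 1 CPM in 2 or more libraries. With TMM factors, the quasi-likelihood test of edgeR 4.0.16 was run on all 22 libraries together, with 1 mean per population and genotype. Calls required an adjusted p (Benjamini-Hochberg) of 0.05 or less and no minimum fold. RPKM here are normalized CPM per kilobase of gene length. The paper names voomWithQualityWeights, run as an alternative with limma 3.58.1, as was DESeq2 1.42.0. RLE factors, no filter, a replicate block, fewer libraries and each library left out were tried too. Statistics were tested on simulated data. Genes with values per library are, in each of 9 role groups, the most abundant and the one with the smallest p in double negative cells, and up to 5 called genes with the largest changes in each direction between populations. Interferon ligands and receptors with counts are named too, and 1 further gene of that rule is not reported here. The gene list, role groups and pathway lists were chosen with earlier results of these data known. Znfx1 in CD45 single positive cells, Ifi27l2a between compartments, and Mx1 in double negative cells, Mx2, Cmpk2, Eif2ak2, Herc6, Bst2, Igtp, Irgm1 and Trim25 were named after their values were seen.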

Additional observations from a re-analysis of the deposited data

Results flagged for a closer look

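In 3 genes the libraries of the genotype labels separated in opposite directions in the CD45- populations: every library labelled Cdh2-cKO was below every library labelled wild type in double negative cells and above it in TdT single positive cells, where each group had 2 libraries. This combination was found in 7.14% of the 42 genes and in 0.904% of all genes tested. The double negative part alone was found in 21 of the 42 genes, against 5.35% of all genes. The TdT single positive part alone was found in 3 of the 42, against 21.4% of all genes. Only the double negative part was thus more frequent among the 42 genes. Dhx58 stood at 6.95 and 7.67 normalized CPM in TdT single positive libraries labelled wild type and at 17.7 and 12 in those labelled Cdh2-cKO, and the difference between the populations in the log2 fold change was -2.24 (SE 0.529, edgeR adjusted p = 0.127). For Oas1a, at 12.9 and 12.8 against 19.9 and 13.6, it was -1.98 (SE 0.652, edgeR adjusted p = 0.195). For Ifit3, at 11.4 and 11 against 13.4 and 11.4, it was -1.06 (SE 0.519, edgeR adjusted p = 0.523). The Ifit3 libraries were separate in TdT single positive cells only by 11.39 against 11.44 normalized CPM, a gap smaller than the floor of 3 counts. None of the 42 genes passed this test by edgeR, with 8 at an unadjusted p under 0.05 and 1 gene called of 15043. In TdT single positive cells the summed pan-leukocyte markers were at 228 and 2057 normalized CPM under the wild type label and at 5118 and 2359 under the Cdh2-cKO label, and their part in the result was not tested. Since the groups held 2 or 3 libraries, single libraries were not tested for standing apart from their group.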

How the results depend on the processing

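Settings changed the number of interferon-stimulated genes called in some comparisons. In double negative cells between the labels, where edgeR called 0, DESeq2 called 5, and between 0 and 5 were called when single libraries were left out (5 without wild type double negative replicate 1, 2 without replicate 2). The count of genes without overlap there went from 21 to between 21 and 33. For the difference between populations, DESeq2 called 5 against 0, and single libraries left out gave 0 to 3 (3 without wild type double negative replicate 1, 2 without wild type TdT single positive replicate 2). Between TdT single positive and double negative cells, where edgeR called 1, the voom test called 2, DESeq2 3, no filter on low counts 0, leaving out both libraries that stood apart 5, wild type libraries only 0, Cdh2-cKO libraries only 4, and single libraries left out 0 to 2 (0 without any 1 of the 4 TdT single positive libraries or Cdh2-cKO double negative replicate 1, 2 without wild type double negative replicate 3 or wild type CD45 single positive replicate 2). With single libraries left out, between 30 and 872 of all genes were called between TdT single positive and double negative cells. Between the compartments 16 were called in wild type libraries only, against 30, and the cause was not tested. The share of all genes called is not given for the other settings, so these counts cannot be compared between settings. The Ifitm3 value in double negative cells ranged from -0.43 to 0.0299 with single libraries left out: it was -0.43 without wild type double negative replicate 3, 0.0299 without replicate 1 and 0.00257 without replicate 2. Of the values of named genes, 2 changed sign, 12 gained and 16 lost a call, and 704 kept direction and side of the threshold. Whether replicate numbers pair the samples was not settled, and the main fit did not pair them. Of 30 same-number pairs, 10 had a correlation of deviations above 0.1 (range -0.378 to 0.674, median 0.0587, against -0.026 for other pairs). Ddx3y was at 123, 97.2, 56.3 and 69.3 normalized CPM in wild type replicate 1 (TdT single positive, double positive, CD45 single positive, double negative). In the same order it was at 0.116, 0, 184 and 0.0512 in wild type replicate 2, and at 62.4, 89.4, 0.736 and 30.9 in Cdh2-cKO replicate 2. With the replicate block 0 genes were called in double negative cells and 29 between the compartments, where Ifi44 lost its call. Groups of 2 or 3 libraries limit what could be called. The Ifng values without libraries that stood apart, the values of Mx1, Parp9 and Herc6 without single libraries, the counts without overlap when a library is left out, and the difference between double negative and TdT single positive cells were chosen after the data were seen.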
